A study of Mus musculus with 14 samples.

Results

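The 10 genes of bile acid synthesis and cholesterol hydroxylation described here were measured in mouse liver: Cyp7a1, Cyp7b1, Cyp8b1, Cyp27a1, Cyp39a1, Cyp46a1, Baat, Hsd3b7, Akr1d1 and Amacr. They are 10 of the 11308 genes tested, and 16 of the 34945 probe sets that are listed with a single gene carry their names. The genes were put forward by pathway with the krill-minus-control log2 changes of these same 14 arrays in view. They therefore count as chosen by those values, which are given for them as a description, with no p-value. Where a gene is written as called, this only labels its place against the threshold applied to all genes, and it is not evidence for a difference in the 10 genes. The livers came from 14 male CBA/J mice, an inbred strain, housed singly on 84 kcal per week of a purified diet built on the AIN93M formula. From 2 months of age, 7 mice ate the control diet and 7 ate a diet with krill powder extract, matched to it in total protein and total lipid but not in amino acids and fatty acids. Livers were collected when the mice were 5 months old and had eaten the diets for 3 months, and each mouse was measured on its own Affymetrix expression array. The krill diet was tested as a whole, at 1 level, in 1 sex and 1 strain, so its components cannot be told apart.

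The liver disposes of cholesterol by turning it into bile acids. In the classic route Cyp7a1 adds the first hydroxyl group to cholesterol and sets the pace, Hsd3b7 and Akr1d1 remodel the sterol ring, and Cyp8b1 directs the product towards cholic acid. In the alternative routes the side chain is oxidised first, by Cyp27a1 in mitochondria or by Cyp46a1, an enzyme best known from neurons, and the resulting oxysterols are hydroxylated by Cyp7b1 or Cyp39a1. Both routes end with Amacr, which inverts the side chain for its shortening in peroxisomes, and with Baat, which joins the bile acid to taurine or glycine. The synthesis is restrained by bile acids themselves, through the receptor Nr1h4 (FXR) and the repressor Nr0b2 (SHP).

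Promoter sequence was matched for 5 of the 10 genes, but for Akr1d1 and Cyp27a1 it gave 0 bases to print. The stretches upstream of Cyp8b1, Cyp46a1 and Hsd3b7 that lie outside annotated genes are shown. On the deposited scale the first 2 of these genes were called lower and Hsd3b7 higher. The sequences are from RefSeq on GRCm38.p6, 5′ to 3′ on the strand of the gene. They lie at chr9:121916306-121916555 (minus strand, 250 bases) for Cyp8b1, at chr12:108334066-108334267 (plus strand, 202 bases, ending 49 bases before the tabled start) for Cyp46a1 and at chr7:127800359-127800608 (plus strand, 250 bases) for Hsd3b7. Capitals mark matches on either strand to the motifs searched, which were the TATA box core TATAAA, the box with letters CCAAT, the GC box spelled GGGCGG, the E-box spelled CACGTG, the half-site of NR5A and other nuclear receptors, spelled AAGGTCA, and an element of HNF4A, spelled CAAAGTCCA. The marked matches do not overlap each other.
Cyp8b1: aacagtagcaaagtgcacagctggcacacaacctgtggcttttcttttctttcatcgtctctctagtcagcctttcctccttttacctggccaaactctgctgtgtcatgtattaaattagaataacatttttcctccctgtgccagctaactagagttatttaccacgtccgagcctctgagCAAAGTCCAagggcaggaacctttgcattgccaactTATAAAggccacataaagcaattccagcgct
Cyp46a1: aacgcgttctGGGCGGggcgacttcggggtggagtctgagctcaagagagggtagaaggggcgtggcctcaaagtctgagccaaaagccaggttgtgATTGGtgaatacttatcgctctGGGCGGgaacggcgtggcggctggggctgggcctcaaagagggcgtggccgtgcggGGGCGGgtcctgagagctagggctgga
Hsd3b7: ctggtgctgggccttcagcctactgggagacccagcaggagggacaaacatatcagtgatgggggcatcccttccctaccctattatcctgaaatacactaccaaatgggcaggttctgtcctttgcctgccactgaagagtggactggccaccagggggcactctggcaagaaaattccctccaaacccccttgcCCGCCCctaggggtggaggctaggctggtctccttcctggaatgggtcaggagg
The Cyp8b1 stretch held TATAAA starting 31 bases before the start and CAAAGTCCA starting 67 bases before it. The Cyp46a1 stretch held GGGCGG at 240, 131 and 75 bases before the start and CCAAT on the other strand at 153 bases, and the Hsd3b7 stretch held GGGCGG on the other strand at 54 bases. Among 32851 promoter windows of 250 bases, 12.4% held the TATA box core, 33.8% the CCAAT letters, 32.7% the GC box, 6.02% the E-box, 4.08% the NR5A half-site and 0.384% the HNF4A element. The last motif was added to the search after the Cyp8b1 sequence had been seen. The matches describe letters in these windows, and the arrays do not measure binding.

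Array quality differed between the diets. The 3'/5' index, the mean log2 ratio of 3' to 5' signal for the actin and pyruvate carboxylase control probe sets, was 1.85 ± 0.29 (SD over 7 mice) in control and 2.84 ± 0.28 (SD over 7 mice) in krill arrays, with no overlap (p = 0.000583 in a two-sided exact permutation test, which is the smallest value 7 against 7 arrays allow, adjusted p = 0.00117 over both measures). The hybridisation spike-in level was 12.93 ± 0.22 (SD over 7 mice) in control and 13.72 ± 0.62 (SD over 7 mice) in krill arrays on the log2 scale (p = 0.0128 in the same exact permutation test, adjusted p = 0.0128). Krill arrays 2, 4, 5 and 7 lay between 14.13 and 14.35, above every control array, while krill arrays 1, 3 and 6 lay between 12.93 and 13.18, within the control range. The part of array quality in the diet differences was not tested, and values without krill arrays 2, 4, 5 and 7 are set beside the results. In bulk liver RNA, fewer cells of a type and less RNA per cell cannot be told apart. The number of arrays limits the precision, and p-values refer to the spread between single mice together with that between their arrays.

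On the krill diet 2 of the 10 genes were called higher, Baat and Hsd3b7. Another 6 were called lower: Cyp46a1, Cyp27a1, Cyp8b1, Cyp7b1, Cyp39a1 and Amacr. Cyp7a1 and Akr1d1 did not pass. When arrays were scaled on the spike-ins, Baat was at -0.14 (SE 0.27) and Hsd3b7 at -0.38 (SE 0.27), neither of them called. That scaling moved the median log2 change of all genes to -0.71. A gene is labelled as called at a Benjamini-Hochberg adjusted p under 0.05 in limma over all genes, a rule that called 47.7% of the tested genes, 22.9% as higher and 24.8% as lower. Folds given below are those of the mean log2 values. The median log2 change of the 10 genes was -0.63, beside 0.04 over all genes tested. In 1 of the 10 genes, Baat, every krill value exceeded every control value, as was so in 6.52% of all genes tested. In 1 other, Cyp46a1, every krill value was under every control value, as was so in 7.61% of all genes tested. Nothing is read from these counts or from the calls of single genes, since the genes were put forward with this contrast known. Without krill arrays 2, 4, 5 and 7, which left 3 krill arrays, 3 of the 10 genes were called higher (Cyp7a1, Baat and Hsd3b7), 3 lower (Cyp27a1, Cyp39a1 and Cyp46a1) and 4 did not pass. In that fit 12.7% of all genes were called higher and 19.6% lower.

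**Figure D1:**
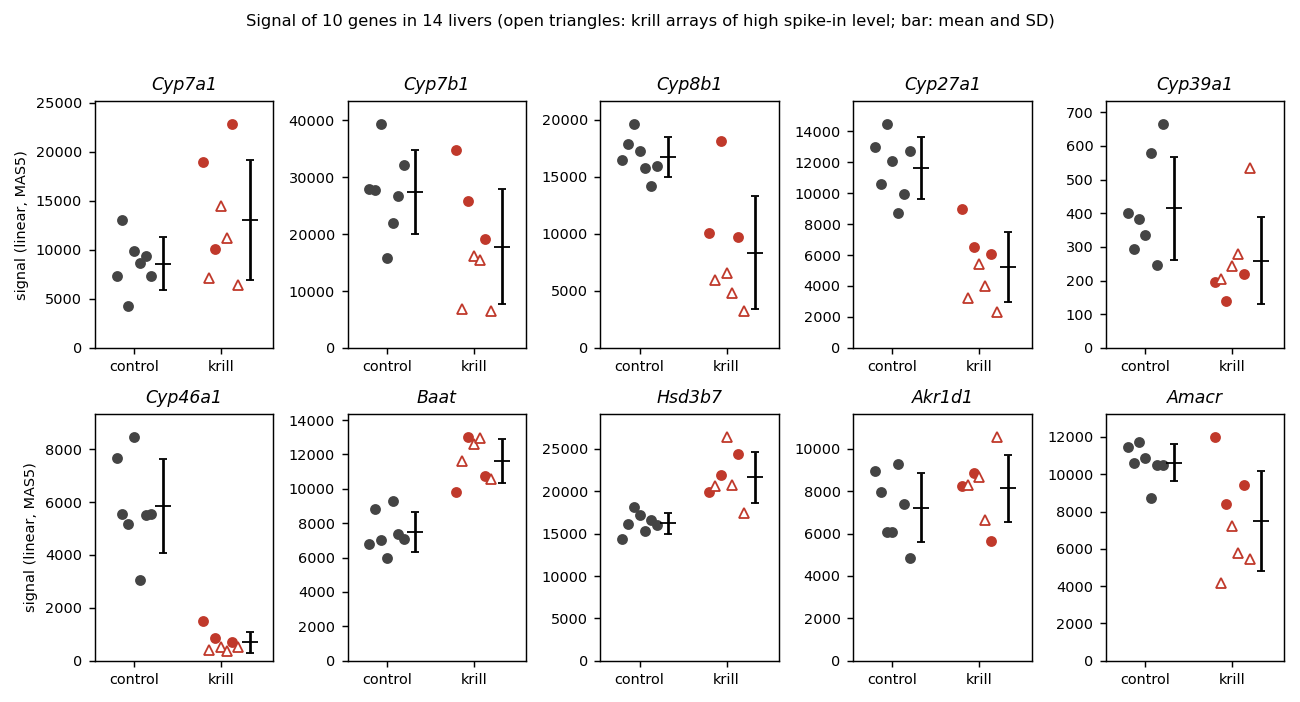
Signal of each gene (linear MAS5 scale, vertical axis starting at 0) in 7 control and 7 krill livers, with 1 point per mouse and the mean and SD as a bar; open triangles are krill arrays 2, 4, 5 and 7. Cyp46a1 shows separate groups with krill at 1507 or lower and control at 3045 or higher, and Baat shows separate groups the other way round on this scale. With arrays scaled on the spike-ins Baat was at -0.14 (SE 0.27) and not called, beside a median of -0.71 over all genes.

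The entry enzyme of the classic route, Cyp7a1, varied widely among mice of either diet. The probe set of highest signal, 1438743_at, ranged in control livers from 4279.6 through a median of 8645 to 13061 and averaged 8563 ± 2708 (SD over 7 mice). In krill livers it ranged from 6448 through a median of 11167 to 22867 and averaged 13017 ± 6104 (SD over 7 mice). The groups overlapped, and the highest values were those of krill mice 6 (22867) and 1 (18914.5). The log2 change, krill minus control, was 0.53 (SE 0.28), and -0.25 when arrays were scaled on the spike-ins. It passed the threshold without krill array 7 (0.68) and without krill arrays 2, 4, 5 and 7 (1.00). The other Cyp7a1 probe set, 1422100_at, gave 4456 ± 1667 (SD over 7 mice) in control and 5072 ± 3027 (SD over 7 mice) in krill livers, and its log2 change was 0.01 (SE 0.35). Both probe sets followed the same mice in the control group (r = 0.92 over 7 arrays, a description), but they differed in the diet change by 0.53 on the log2 scale.

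The ring-modifying enzymes of the classic route were not called lower with Cyp8b1 on the deposited scale. Hsd3b7, the dehydrogenase that follows Cyp7a1 and also serves the alternative route, ranged from 14398 through 16084 to 18145 in control livers and from 17397 through 20769 to 26451 in krill livers. Its means were 16245 ± 1238 (SD over 7 mice) and 21632 ± 2986 (SD over 7 mice), a 1.32-fold higher level on krill on the deposited scale. Krill array 7 was the lowest of its group and the only one inside the control range. The log2 change was 0.40 (SE 0.13), 0.44 without the 4 krill arrays, and 0.12 and not called after quantile normalization. After scaling on the spike-ins it was -0.38 (SE 0.27) and not called, beside a median of -0.71 over all genes. Akr1d1, the reductase that gives bile acids their bent ring, averaged 7230 ± 1639 (SD over 7 mice) in control and 8132 ± 1591 (SD over 7 mice) in krill livers. Its groups overlapped, from 4843 through 7396 to 9282 in control and from 5639 through 8294 to 10575 in krill livers, with a log2 change of 0.18 (SE 0.18) that became 0.07 without the 4 krill arrays and -0.61 after scaling on the spike-ins. A further Akr1d1 probe set, 1425771_at, gave -0.08 (SE 0.26) on the log2 scale. It averaged 9735 over krill arrays 1, 3 and 6 and 4863 over krill arrays 2, 4, 5 and 7. The first probe set, 1455100_at, averaged 7577 and 8548 there. In control livers the r of these 2 probe sets was 0.63 over 7 arrays, a description.

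Cyp8b1, which steers synthesis towards cholic acid, was 2.29-fold lower on krill. Control livers lay close together, from 14168 through 16461 to 19632, with a mean of 16730 ± 1739 (SD over 7 mice). Krill livers spread from 3193 through 6593 to 18097, with a mean of 8346 ± 4960 (SD over 7 mice). A single krill mouse, number 3, lay inside the control range, and the other 6 lay below it. The log2 change was -1.19 (SE 0.27). It was -0.46 without the 4 krill arrays of high spike-in level, which no longer passed, and krill mouse 3 is among the 3 that remain there.

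Cyp27a1, the mitochondrial hydroxylase that opens the alternative route, was 2.40-fold lower. Its control values ran from 8694 through 12073 to 14486 (mean 11643 ± 1995, SD over 7 mice) and its krill values from 2319 through 5421 to 8962 (mean 5215 ± 2254, SD over 7 mice). Only krill mouse 1 reached the lowest control value. The log2 change was -1.26 (SE 0.24) with all arrays and -0.70, still called, without the 4 krill arrays. It was -0.56 with the spike-in level as a covariate and -0.29 with the 3'/5' index as a covariate, and neither was called. A further Cyp27a1 probe set, 1457665_x_at, lay under the signal filter, with values between 1.31 and 120.8.

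Cyp46a1, cholesterol hydroxylase of the side chain, had the largest difference of the 10 genes. Control livers ranged from 3045 through 5552 to 8473 and averaged 5849 ± 1768 (SD over 7 mice). Krill livers ranged from 367 through 529 to 1507 and averaged 698 ± 399 (SD over 7 mice), so that the highest krill value lay below the lowest control value. The level was 8.78-fold lower, a log2 change of -3.13 (SE 0.28), the rank of 21 among all 11308 genes ordered from the lowest change upward. It was -2.50 without the 4 krill arrays and between -3.34 and -3.01 when any 1 array was left out. The krill mice highest in Cyp46a1 were number 1 (1507), number 3 (877) and number 6 (704), the 3 whose spike-in level lay within the control range.

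The oxysterol hydroxylases that act next were also called lower, and both calls were lost in most of the fits that left out 1 array. Cyp7b1, which acts on the product of Cyp27a1, ranged from 15794 through 27802 to 39428 in control and from 6496 through 16147 to 34808 in krill livers. Krill mice 2 and 7 lay lowest, at 6783 and 6496, and together with krill mouse 5 (15522) under every control mouse, whereas krill mouse 1 lay above the control median. The means were 27412 ± 7446 (SD over 7 mice) and 17820.2 ± 10096 (SD over 7 mice), a log2 change of -0.80 (SE 0.32) that was -0.04 without the 4 krill arrays. The call was kept in 4 of the 14 fits that left out 1 array, with values between -0.996 and -0.59. A further probe set, 1421075_s_at, gave -0.46 (SE 0.27), and 1446995_at lay under the signal filter. Cyp39a1, which acts on the product of Cyp46a1, ranged from 245 through 383 to 666 in control and from 139 through 219 to 534 in krill livers. The means were 414 ± 153 (SD over 7 mice) and 259 ± 129 (SD over 7 mice), with overlap of the groups, and krill mouse 7 was the highest of its diet. The log2 change was -0.68 (SE 0.27) with all arrays and -1.05 without the 4 krill arrays. Its call was kept in 3 of the 14 fits that left out 1 array, with values between -0.86 and -0.55.

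At the end of the pathway Amacr and Baat differed in opposite directions on the deposited scale. Amacr, the racemase of the side chain, ranged from 8704 through 10627 to 11724 in control livers (mean 10622 ± 977, SD over 7 mice) and from 4177 through 7208 to 12018 in krill livers (mean 7498 ± 2690, SD over 7 mice). Its log2 change was -0.58 (SE 0.20) with all arrays and -0.10, no longer called, without the 4 krill arrays; it also lost its call without krill array 5 (-0.53). Baat, the conjugating enzyme, ranged from 5979 through 7068 to 9283 in control livers (mean 7475 ± 1174, SD over 7 mice) and from 9788 through 11611 to 13036 in krill livers (mean 11621 ± 1287, SD over 7 mice). Every krill mouse lay above every control mouse in Baat, a 1.56-fold higher level on the deposited scale. The log2 change was 0.64 (SE 0.14) and 0.59 without the 4 krill arrays. After scaling on the spike-ins it was -0.14 (SE 0.27) and not called, beside a median of -0.71 over all genes. The other Baat probe set, 1419001_at, gave 0.52 (SE 0.17) with overlapping groups.

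**Figure D2:**
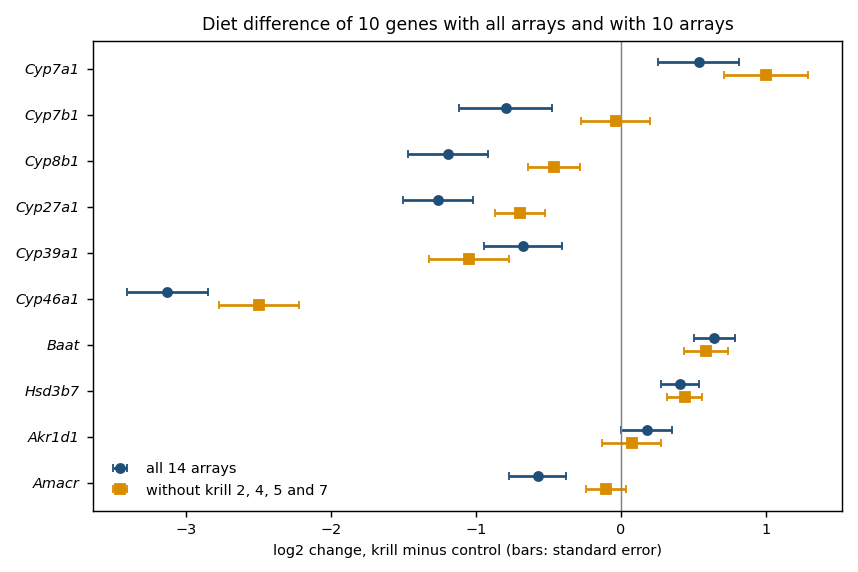
Log2 change, krill minus control, of each gene with its standard error, from all 14 arrays (circles) and from the 10 arrays that remain without krill arrays 2, 4, 5 and 7 (squares). Cyp46a1 stays at -2.50 with fewer arrays, while Cyp7b1 goes from -0.80 to -0.04 and Amacr from -0.58 to -0.10. Scaling on the spike-ins turns the positive values of Cyp7a1, Baat, Hsd3b7 and Akr1d1 negative, none of them called. It also moves the median of all genes to -0.71.

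Because every array carries all 10 genes, the balance between them can be given within an array, where a common scaling of the array cancels. An effect that differs between probe sets does not cancel, and the 3'/5' index differed between the diets. The mean log2 ratio of 2 probe sets of 1 gene also moved between control and krill arrays. It went from 0.96 to 1.49 for Cyp7a1, 0.63 to 0.29 for Cyp7b1, 0.09 to 0.35 for Akr1d1 and 1.99 to 2.11 for Baat. Ratios are log2 values relative to the mean of the control arrays. The pairs were chosen after the values were seen and are a description of the same contrast. The share of other gene pairs with such separation was not taken, so nothing is read from the counts of arrays. Cyp7a1 over Cyp27a1 was 1.80 ± 0.40 (SD over 7 mice) in krill arrays against 0 ± 0.69 (SD over 7 mice) in control arrays. All 7 krill arrays, from 1.13 to 2.40, lay above the highest control array at 0.79, and the 3 arrays with control-like spike-in level averaged 1.70. Cyp7a1 over Cyp8b1 was 1.73 ± 0.76 (SD over 7 mice) against a control SD of 0.58, with 6 of 7 krill arrays above all control arrays and krill mouse 3 at 0.19; krill arrays 1, 3 and 6 averaged 1.46. Cyp7a1 over Cyp7b1 was 1.33 ± 0.57 (SD over 7 mice) against a control SD of 0.82, with 5 of 7 krill arrays above all control arrays and a mean of 1.04 over krill arrays 1, 3 and 6. With the other Cyp7a1 probe set the ratio to Cyp27a1 was 1.27 with 6 of 7 krill arrays above all control arrays, that to Cyp8b1 1.20 with 5 of 7, and that to Cyp7b1 0.80 with only 2 of 7. Hsd3b7 over Cyp7a1 was -0.13 ± 0.59 (SD over 7 mice); the control arrays ran from -0.69 to 1.09, and krill arrays 1 (-0.92) and 6 (-0.90) lay below all of them. Krill arrays 1, 3 and 6 averaged -0.56 in this ratio. Baat over Cyp27a1 was 1.90 ± 0.70 (SD over 7 mice), with all 7 krill arrays above all control arrays and a mean of 1.28 over krill arrays 1, 3 and 6. With the other Baat probe set it was 1.78, with 6 of 7 above. A ratio shows unequal change in the signals of its probe sets and does not show that either gene stayed level.

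**Figure D3:**
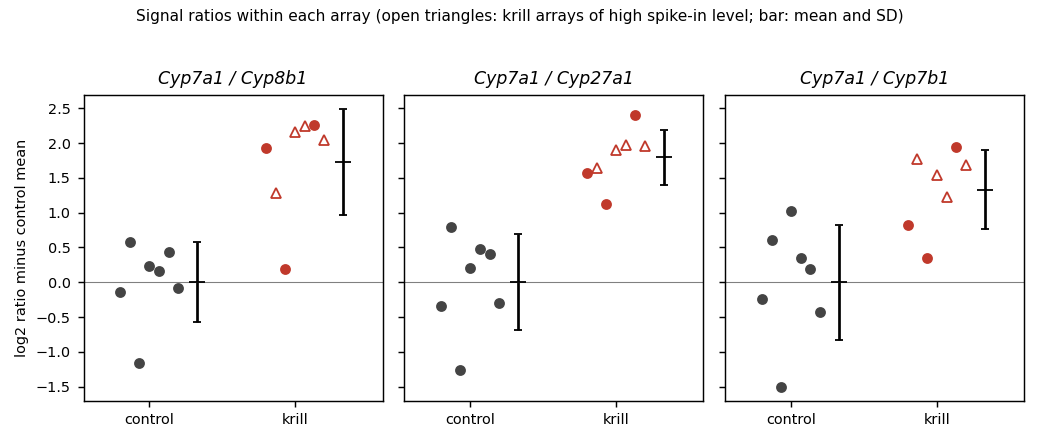
Log2 ratio of Cyp7a1 to Cyp8b1, Cyp27a1 and Cyp7b1 within each array, minus the control mean, with 1 point per mouse and the mean and SD as a bar; open triangles are krill arrays 2, 4, 5 and 7. For Cyp27a1 all 7 krill arrays lie above the control arrays, for Cyp8b1 krill mouse 3 lies at 0.19 among the controls, and for Cyp7b1 5 krill arrays lie above them. The share of other gene pairs with such separation was not taken.

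Covariation among mice of 1 diet does not use the diet contrast. In the 7 control livers, the 45 pairs of the 10 genes gave a median Pearson r of 0.005, with 23 pairs positive. An exact permutation p under 0.05 was found in 2 pairs, and 0 passed adjustment over 90 relations. These relations join the pairs of both diets, so the p-values of krill pairs enter the adjusted p of control pairs. The closest pair was Cyp27a1 and Amacr, with r = 0.87, Spearman rho = 0.79, exact permutation p = 0.00437 (adjusted p = 0.104) for r and exact permutation p = 0.048 (adjusted p = 0.314) for rho. Without the 2 mice farthest from the median of Cyp27a1 this r was 0.73. Cyp46a1 and Baat ran in opposite directions (r = -0.83, exact permutation p = 0.0169, adjusted p = 0.217; rho = -0.75, exact permutation p = 0.0663, adjusted p = 0.314), a relation that rests on the 2 outermost mice, since r was -0.36 without them. Over the 7 krill arrays 12 of the 45 pairs had an exact permutation p under 0.05 and 1 passed the same adjustment, Cyp7b1 and Cyp27a1 (exact permutation p = 0.000198, adjusted p = 0.0179, for r; exact permutation p = 0.000397, adjusted p = 0.0357, for rho). These arrays form sets of 4 and 3 by spike-in level, too few in each for a correlation. The permutation treats all 7 as alike, so a difference between the sets can enter its p-values. Nothing about covariation among krill mice is read from them, and no r is given without removal of the spike-in level. With the spike-in level of the array removed from both genes by a linear fit, the r of Cyp7b1 and Cyp27a1 over the 7 krill arrays was 0.86, a description. The 3'/5' index was not removed in that fit.

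Among control arrays Cyp7a1 followed the spike-in level of the array (r = 0.92, exact permutation p = 0.00298, adjusted p = 0.0794 over 40 relations; rho = 0.96, exact permutation p = 0.00278, adjusted p = 0.054). Without the 2 arrays farthest from the median this r was 0.92. The relation did not pass adjustment, which joined both diets and both quality measures. The control spike-in level spanned only 12.60 to 13.23. Cyp7b1 lay on the other side, with r = -0.72 (exact permutation p = 0.0625, adjusted p = 0.192) and rho = -0.75 (exact permutation p = 0.0663, adjusted p = 0.204). In krill livers the highest Cyp7a1 values, mice 6 and 1, belonged to arrays of low spike-in level, and the lowest, mouse 7, to the array of highest spike-in level.

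**Figure D4:**
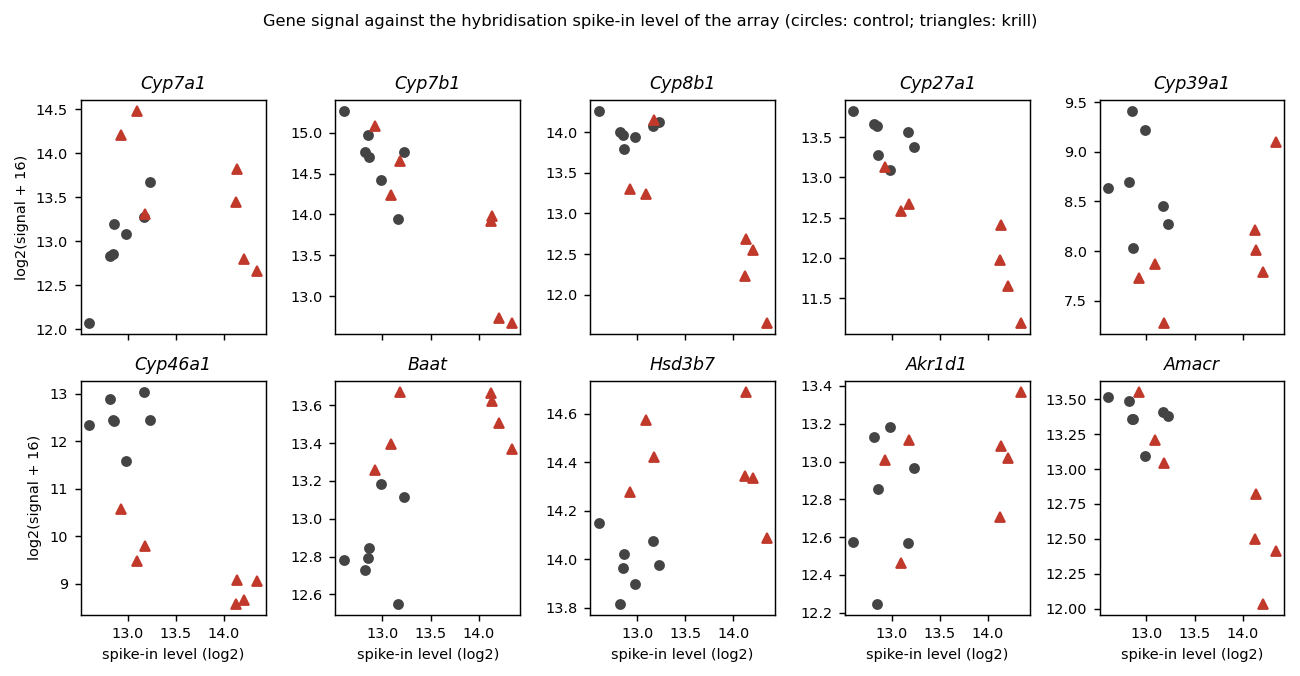
Log2(signal + 16) of each gene against the hybridisation spike-in level of the array (log2), with 7 control arrays as circles and 7 krill arrays as triangles. Krill arrays form a set at 12.93 to 13.18 and a set at 14.13 to 14.35, and only the first shares the range of the control arrays.

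By Pearson r over the 7 control arrays, the genes most like Cyp7a1 among 11307 searched were Mcat (0.98), Tdp2 (0.98), Dnajc18 (0.97), Rmi2 (0.97) and Cenpp (0.96). These values are a description over 7 points that share their arrays and their spike-in level. The control mean signal was 76.1 for Cenpp, below the 100.6 of the signal filter, which it passed with a krill mean of 192. It was 104 for Rmi2 and 129.5 for Dnajc18, close to the filter, and 1027 for Mcat and 1067 for Tdp2.

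Enzymes that work beside the 10 genes moved in both directions. These enzymes, the regulators, the transporters and the cell markers below were also listed with earlier results of these data known. Their counts, calls and p-values are therefore a description and not evidence for a difference. Of 13 written, 11 were tested: 3 rose, 5 fell and 3 missed the threshold, and the median log2 change was 0.19. Of all genes tested 22.9% were called higher and 24.8% lower, with a median log2 change of 0.04. Without the 4 krill arrays these shares were 12.7% and 19.6%. Cyp3a11, a bile acid hydroxylase among its other roles, rose by 0.80 (limma adjusted p = 0.00323), Fdx1, the ferredoxin that passes electrons to mitochondrial enzymes such as Cyp27a1, by 0.70 (limma adjusted p = 0.00396), and Scp2, the peroxisomal thiolase and sterol carrier, by 0.66 (limma adjusted p = 0.00723). After scaling on the spike-ins Cyp3a11 was at 0.015, Fdx1 at -0.08 and Scp2 at -0.12, and after quantile normalization Cyp3a11 was at 0.046 and Scp2 at -0.09. Acox2, the oxidase that shortens the bile acid side chain, fell by 1.17 (limma adjusted p = 0.00724), from 6688 ± 1197 (SD over 7 mice) to 3507 ± 2090 (SD over 7 mice). Slc27a5, the bile acid ligase that works just before Baat, fell by 0.57 (limma adjusted p = 0.0279). Without the 4 krill arrays 3 of the 11 enzymes rose in limma (Fdx1, Hsd17b4 and Acot8), 0 fell (0 also at an unadjusted p under 0.05) and 8 did not pass. Among those that no longer passed, Cyp3a11 was then at 0.35 (limma adjusted p = 0.12), Scp2 at 0.23, Acox2 at -0.27 and Slc27a5 at -0.06 on the log2 scale, whereas Fdx1 rose by 0.62 (limma adjusted p = 0.023). Por and Fdxr had no probe set listed with a single gene.

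Of 20 regulators written, 18 were tested: 2 rose (Nr1h4 and Nr1h3), 10 fell and 6 missed the threshold. After scaling on the spike-ins Nr1h4 was at -0.39 and Nr1h3 at -0.14. The median log2 change was -0.79. Of all genes tested 22.9% were called higher and 24.8% lower, or 12.7% and 19.6% without the 4 krill arrays. Nr1h4, the bile acid receptor, rose by 0.40 (limma adjusted p = 0.023), from 5761 ± 562 (SD over 7 mice) to 7626 ± 961 (SD over 7 mice). Nr0b2, the repressor it induces, fell by 1.84 (limma adjusted p = 0.00431), from 1801 ± 1166 (SD over 7 mice) to 541 ± 439 (SD over 7 mice), with overlapping groups. Fgfr4, the receptor through which an intestinal growth factor represses Cyp7a1, fell by 1.59 (limma adjusted p = 0.000183), whereas its partner Klb did not pass, at -0.13 (limma adjusted p = 0.607). Rxra, the common partner of nuclear receptors, fell by 1.82 and Ppara, the fatty acid receptor, by 1.93 (limma adjusted p = 2.9e-05 and 5.5e-05). In both all krill mice lay below all control mice, as was so in 7.61% of all genes tested. Nfil3, a repressor of the circadian clock output, fell by 1.97 (limma adjusted p = 0.000145). Nr5a2, which activates Cyp7a1 and Cyp8b1, fell by 0.78 (limma adjusted p = 0.0205), and Hnf4a, a master regulator of hepatocyte genes, was at -0.56 without passing (limma adjusted p = 0.0867). Without the 4 krill arrays 1 regulator rose (Nr1h3), 7 fell and 10 did not pass; Fgfr4 was at -1.59, Rxra at -1.70, Ppara at -1.18 and Nfil3 at -1.04, all still past the threshold. Nr0b2 at -0.78 (limma adjusted p = 0.214), Nr5a2 at -0.27 (limma adjusted p = 0.427) and Nr1h4 at 0.23 (limma adjusted p = 0.211) were not, and Hnf4a was at 0.04.

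Bile acid transporters were called in both directions. Of 12 transporters written, 9 were tested: 1 rose, 4 fell and 4 missed the threshold, with a median log2 change of -0.17. Of all genes tested 22.9% were called higher and 24.8% lower, or 12.7% and 19.6% without the 4 krill arrays. The 4 that fell were Abcb11, the bile salt pump, by 0.99 (limma adjusted p = 0.0211), Abcb4, which moves phospholipid into bile, by 1.70 (limma adjusted p = 0.00139), Abcc2, a pump for conjugates, by 1.55 (limma adjusted p = 0.000706), and Abcc3, a basolateral pump, by 0.96 (limma adjusted p = 0.00522). The 1 that rose was Slco1a1, an uptake carrier, by 0.59 (limma adjusted p = 0.0356), and it was at -0.19 after scaling on the spike-ins. Without the 4 krill arrays Abcb4 was at -0.52, Abcc2 at -0.82 and Slco1a1 at 0.86, all past the threshold. Abcb11 at -0.49 (limma adjusted p = 0.212) and Abcc3 at -0.71 (limma adjusted p = 0.066) no longer passed. In these 3 lists together 6 genes were called higher and 19 lower, again as labels. After scaling on the spike-ins limma called 0 of them higher (0 also at an unadjusted p under 0.05) and 26 lower. Of the 11308 genes tested, that fit called 336 higher and 5445 lower.

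Markers of liver cells were measured beside these genes. The same shares of all genes tested stand beside their calls, 22.9% higher and 24.8% lower. Of 6 hepatocyte markers 5 were tested, and 4 of these rose (Alb, Apoa1, Ttr and Cyp2e1, of which Alb, Apoa1 and Cyp2e1 lay lower after quantile normalization and after scaling on the spike-ins) while Tat fell. Their summed signal was 223107 to 364294 in control and 304685 to 602741 in krill livers, and without the 4 krill arrays 0 of 5 passed in limma (1, Tat, at an unadjusted p under 0.05). Of 5 cholangiocyte markers only Epcam passed the signal filter, at 44.5 to 222 in control and 16.8 to 373 in krill livers. Summed Kupffer cell markers (4 of 5 tested) were 4646 to 6569.7 and 6538 to 13104, endothelial markers (5 of 5) 7922 to 9068 and 4394 to 12947, and stellate cell markers (4 of 5) 11138 to 16240.3 and 10188 to 15772, in control and krill livers in turn. These sums join markers that moved in opposite directions. Of the Kupffer cell markers Cd5l (log2 change 1.18) and Adgre1 (0.92) were called higher, Vsig4 (-0.89) lower, and Clec4f (0.34) did not pass. Of the endothelial markers Lyve1 (1.06) was called higher, Stab2 (-0.90) lower, and 3 did not pass. Of the stellate cell markers Lrat (0.82) was called higher, Dcn (-0.43) lower, and 2 did not pass. Without the 4 krill arrays Cd5l (0.82), Adgre1 (0.48), Stab2 (-0.78) and Lrat (0.71) kept their calls. In that fit Vsig4 (-0.35), Lyve1 (0.48) and Dcn (-0.17) lost theirs, and Clec4g (0.59), an endothelial marker, was called higher. Of all genes tested 12.7% were then called higher and 19.6% lower. None of the tested markers was at 0, and the part of cell makeup in the diet differences was not tested.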

How the data were processed

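Liver RNA of 14 mice was labelled as biotin cRNA from 5 ug of total RNA, per the labels' protocols. The deposited table gives intensity values on a linear scale, made with MAS5 per the submitters' processing notes, with a version not given in the sources used here. The trimmed mean of each array (2% off each end) was 500.004 to 500.005, so scaling had equalised these means. Whether another step was also applied cannot be told from these values. Such scaling raises every value of an array whose RNA is dim. Detection calls were not used here.

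Of 45101 probe sets, 64 were controls, 34945 were listed with a single gene in the platform table, 932 with several and 9160 with none. Signal was taken as log2(signal + 16), which understates folds of dim genes. The upper 50% of probe sets by mean were kept (22518, from a signal of 100.6), and the brightest stood for its gene (11308 genes). All 10 genes passed, with 14 of their 16 probe sets; 1446995_at and 1457665_x_at did not. The diet fit was limma 3.58.1 (lmFit, eBayes with trend) in R 4.3.3 with no covariate and Benjamini-Hochberg adjustment at 0.05. It was tested on simulated data. Correlations over 7 mice used exact permutation of pairings, two-sided, run in Python 3.11.15 (numpy 2.4.6, pandas 2.3.3), with matplotlib 3.10.9 for figures.

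Each array's diet and number were read from its title. The 10 genes and all lists were chosen with earlier results of these data known. Named genes are the 10 members, up to 4 called genes per related list with the smallest p, a panel (Nr1h4, Nr0b2, Nr5a2, Hnf4a, Fgfr4, Klb, Slc27a5, Acox2, Por, Fdxr), and the 5 genes most like Cyp7a1 in control arrays; their r over krill arrays, part of that rule, is left out because the krill arrays fall into 2 sets. Genes named to spell out a count of 5 or fewer were chosen after their values were seen. Array weights, pseudocounts of 1 and 64, quantile normalization, centring, other filters, other probe set rules, no trend, the replicate block and each array left out were tried. Leaving out krill arrays 2, 4, 5 and 7, a covariate for spike-in brightness or for the 3'/5' index, and scaling on the spike-ins were added after the data had been seen.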

Additional observations from a re-analysis of the deposited data

Results flagged for a closer look

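In the control group, the Amacr signal of mouse 5 stood apart: it was the lowest at 8704, the next control mouse was at 10480.2, and the gap was 0.6235 of the log2 range of the 7 control mice. In all, 24 groups of 7 arrays were checked for such a gap and 1 was found; chance gives about 1 in 20.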

How the results depend on the processing

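All counts are limma calls at an adjusted p under 0.05, which for the 10 genes and the lists are labels and not evidence. With all arrays 2 of the 10 genes were higher and 6 lower, the 3 related lists had 6 higher and 19 lower, and 5397 genes were called. Quantile normalization gave 1 of the 10 genes higher (Hsd3b7 lost its call) and 1 list gene higher. Centring on array medians gave 3 of the 10 genes lower and 12 list genes lower; it moved the median of all genes from 0.04 to 0.19 and the share of called genes that were higher from 48.1% to 62.8%. Testing every probe set called 8729 probe sets. Without krill arrays 2, 4, 5 and 7, 3 of the 10 genes and 9 list genes were lower. With the spike-in level as a covariate 1 of the 10 genes was higher and 2 were lower, list genes were 3 higher and 5 lower, and 1978 genes were called; Cyp7b1 turned to 0.20. With the 3'/5' index as a covariate, which does not overlap between the diets, limma called 0 genes in the table, 0 of the 10 in either direction and 0 of the lists. At an unadjusted p under 0.05 that fit held 1873 genes, 2 of the 10 higher and 2 lower; Cyp7b1 turned to 0.63, Cyp8b1 to 0.0098 and Amacr to 0.12. Scaling on the spike-ins moved the median of all genes to -0.71 and left 5.81% of called genes higher. It called 0 of the 10 genes and 0 list genes higher in limma (0 and 0 at an unadjusted p under 0.05). Called lower were 6 of the 10 genes and 26 list genes, beside 5445 of the 11308 genes tested. Cyp7a1 was then -0.25, Baat -0.14, Hsd3b7 -0.38 and Akr1d1 -0.61. The causes were not tested.

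Leaving out 1 array at a time gave 2 to 3 of the 10 genes higher and 3 to 5 lower, 4 to 7 list genes higher and 16 to 20 lower, and 4680 to 6147 genes called. Same-numbered mice of both diets had correlations of deviations from -0.02 to 0.098. Differently numbered mice were not compared in this way, so whether the numbers pair mice was not settled. The replicate block gave 2 of the 10 genes higher, 6 lower and 5253 genes called, and changed none of the calls of the 10 genes. Removing the spike-in level from both genes moved the median correlation in control livers from 0.005 to -0.063. Low signal limits Cyp39a1 most, and 3 krill arrays carry every value given without the other 4.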
